A study of Mus musculus with 28 samples.

Results

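The genes described here are the 10 genes of the classical MHC class I antigen presentation pathway, chosen by name from the 28244 genes of the count table and followed across all 28 RNA-seq samples. They are B2m, H2-K1, H2-D1, Tap1, Tap2, Tapbp, Psmb8, Psmb9, Psmb10 and Nlrc5. All 10 were present in the table and all 10 passed the filter on low counts in every experiment. This filter was applied over all groups of an experiment together, so a gene low in some groups could pass through others. They were chosen by name and function, but with earlier results of these data known, so the choice was not blind to the data.

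MHC class I molecules display short peptides from inside the cell on its surface, where CD8+ T cells and natural killer cells read them. Peptides are cut by the proteasome, whose catalytic subunits can be replaced by inducible ones to form the immunoproteasome. The TAP transporter moves the peptides into the endoplasmic reticulum, where tapasin helps to load them onto a heavy chain paired with beta-2-microglobulin. The genes are induced by interferons through factors such as IRF1 and the transactivator NLRC5. Neural cells are known for low class I levels at rest, whereas leukocytes, endothelium and lung epithelium carry much more.

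The study asked whether neural stem cells (NSCs) exist outside the central nervous system and how such peripheral NSCs (pNSCs) compare with brain NSCs. The Nes-GFP experiment, in which GFP follows Nestin regulatory elements, holds brain NSCs, pNSCs from adult lung GFP+ cells, pNSCs from postnatal tail GFP+ cells, lung cells and tail cells, with 2 samples each. These samples carry only tissue and cell type in their labels and were placed in this experiment from the study's description. The Wnt1Cre-mTmG experiment holds brain NSCs, tail pNSCs, dorsal root ganglion (DRG) pNSCs and DRG neural crest stem cells (NCSCs), with 3 samples each. There Cre driven by Wnt1 turns membrane Tomato into membrane GFP in neural crest descendants, the pNSCs were the Tomato+/GFP- cells of unsorted postnatal tail or DRG cultures, and the NCSCs came from adult wild-type DRG. The Sox2-GFP experiment, a knock-in reporter, holds brain NSCs and pNSCs from postnatal lung GFP+ cells with 3 samples each, and it was compared with the same 2 lung cell samples as the Nes-GFP experiment. Adult mice were about 4 to 6 weeks old and postnatal mice about 1 to 5 days. NSCs and pNSCs were grown in medium with EGF and bFGF, and pNSC lines were raised from single picked clusters, so that each group may stand for few clones. All samples are labelled C57BL/6, while the methods describe wild-type mice of CD1 or mixed CD1 and C3H background with which the reporter mice were bred. The reads were aligned to the C57BL/6 genome. H2-K1 and H2-D1 differ in sequence between mouse strains and resemble each other and other class I genes, so differences in their counts between lines can include differences in how well reads aligned, which was not tested. The study calls its samples biological replicates without saying whether they were separate animals, so p-values measure the spread between these samples, which may be technical.

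The totals ran from 9808246 to 22637031 counts per sample, of which the 10 genes together received 1987 to 71829 counts. The 6 samples of Wnt1Cre-mTmG brain NSCs and DRG pNSCs were the shallowest. The detection floor of 3 counts stood for 0.131 to 0.294 CPM, the counts scaled to a common library size with TMM factors. Replicates of 1 group lay close together except for DRG NCSC replicate 3, whose chi-square distance to its replicates was 16.8 and 21.0 per degree of freedom, against at most 2.82 in the other pairs. The labels held in the marker genes: the 7 NSC markers, among them Sox2 and Nes, summed to 6811 to 9012 CPM in the 21 NSC and pNSC samples. They summed to 87.9 to 90.8 CPM in tail cells and 285 to 308 CPM in lung cells. The DRG NCSCs held 4291 to 4395 CPM of neural crest and Schwann cell markers, and also 1565 to 1957 CPM of the NSC markers. Tail cells held 870 to 882 CPM of the neural crest and Schwann cell markers. The NSC and pNSC samples held 3.87 to 73.4 CPM of them, highest in Sox2-GFP brain NSCs.

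Of the 10 genes, 7 lie in the MHC on chromosome 17 (GRCm38). H2-K1 spans chr17:33996017-34000347, Tapbp chr17:33915899-33929292, Psmb9 chr17:34181987-34187764, Tap1 chr17:34187553-34197225, Psmb8 chr17:34197721-34201454, Tap2 chr17:34203527-34216321 and H2-D1 chr17:35262730-35267499. B2m lies at chr2:122147686-122153083, Psmb10 at chr8:105935735-105938444 and Nlrc5 at chr8:94434356-94527272. Psmb9 and Tap1 are transcribed away from each other, and their RefSeq start sites lie 226 bases apart. In the GENCODE annotation both genes also overlap. Apart from H2-K1 and H2-D1, each gene overlaps another gene, and reads of these overlaps cannot be assigned because no source used here gives the strand option of the counting.

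The 250 bases before the start site were read from RefSeq for the 8 genes with a promoter entry, which leaves out Tap2 and Nlrc5. The sequences below show the class I promoters that can be set against the levels that follow. B2m, H2-K1 and H2-D1 each hold a TGACG, the core of a cAMP response element, and exactly 20 bases further an inverted CCAAT box. The spacing was noticed after the sequences had been read. It was found in 3 of the 8 promoters and, on either strand, in 0.0913% of all 32851 promoters. As the spacing was set from these 3 promoters, which are also among all promoters, the 2 shares are no test. The promoters of H2-K1 and H2-D1 also resemble each other in sequence. The 30 bases are shown with both elements in capitals, on the strand of the gene, at chr2:122147609-122147638, chr17:34000359-34000388 (minus strand) and chr17:35262993-35263022 of GRCm38.p6. They run from 78 to 49 bases before the start site in B2m and from 101 to 72 bases before it in H2-D1, whose pair lies inside the span that GENCODE gives the gene. In H2-K1 they run from 41 to 12 bases before the first of the gene's 2 RefSeq start sites.
B2m: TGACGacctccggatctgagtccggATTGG
H2-K1: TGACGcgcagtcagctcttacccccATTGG
H2-D1: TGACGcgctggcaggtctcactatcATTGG

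B2m and H2-K1 are shown at more length because they were the steadiest and the most variable of the presenting genes among the neural lines. The stretches run from 250 to 11 bases before the start site, at chr2:122147437-122147676 and chr17:34000358-34000597 (minus strand). Capitals mark the spaced pair and, in B2m, a match to the interferon-stimulated response element, searched as GAAA, any 2 bases and GAAA.
B2m: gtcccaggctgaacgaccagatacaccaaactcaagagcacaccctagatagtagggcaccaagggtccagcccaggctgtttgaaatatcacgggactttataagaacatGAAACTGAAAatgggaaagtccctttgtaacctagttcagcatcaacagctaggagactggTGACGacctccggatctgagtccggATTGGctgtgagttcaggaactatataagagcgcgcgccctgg
H2-K1: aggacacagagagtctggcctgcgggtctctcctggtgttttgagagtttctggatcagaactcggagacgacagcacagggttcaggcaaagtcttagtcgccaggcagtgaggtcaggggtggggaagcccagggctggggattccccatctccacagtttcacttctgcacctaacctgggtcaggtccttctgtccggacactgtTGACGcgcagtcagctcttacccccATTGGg
This exact pattern, searched on both strands, was found in B2m alone of the 8 promoters and in 2.98% of all promoters. Looser forms of the element were not searched, so the other promoters are not shown to lack an interferon element. CCAAT was found in 6 of 8 (33.8% of all promoters) and TGACG in 5 of 8 (17.8%), and these counts include the spaced pairs above. The windows of Tap1 and Psmb9 overlap, and the same CCAAT and the same TGACG are counted for both genes. The counts are therefore not of separate sites and are not a test against all promoters. A match of letters is a description of the window and not a binding site.

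Lung cells held the highest level of each of the 10 genes, and the 8 NSC and pNSC groups held low levels. Of the presenting molecules, B2m, the light chain of every class I molecule, measured 1041 and 1053 CPM in lung cells. It measured 330, 313 and 238 CPM in the DRG NCSCs, the last in replicate 3, and 114 and 119 CPM in tail cells. In the brain NSCs it was 48.1 and 48.1 CPM for Nes-GFP, 52.5, 52.3 and 49.3 for Wnt1Cre-mTmG, and 73.3, 78.2 and 74.0 for Sox2-GFP. Every NSC and pNSC sample lay between 45.3 and 96.4 CPM, below the lowest tail cell sample.

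**Figure D1:**
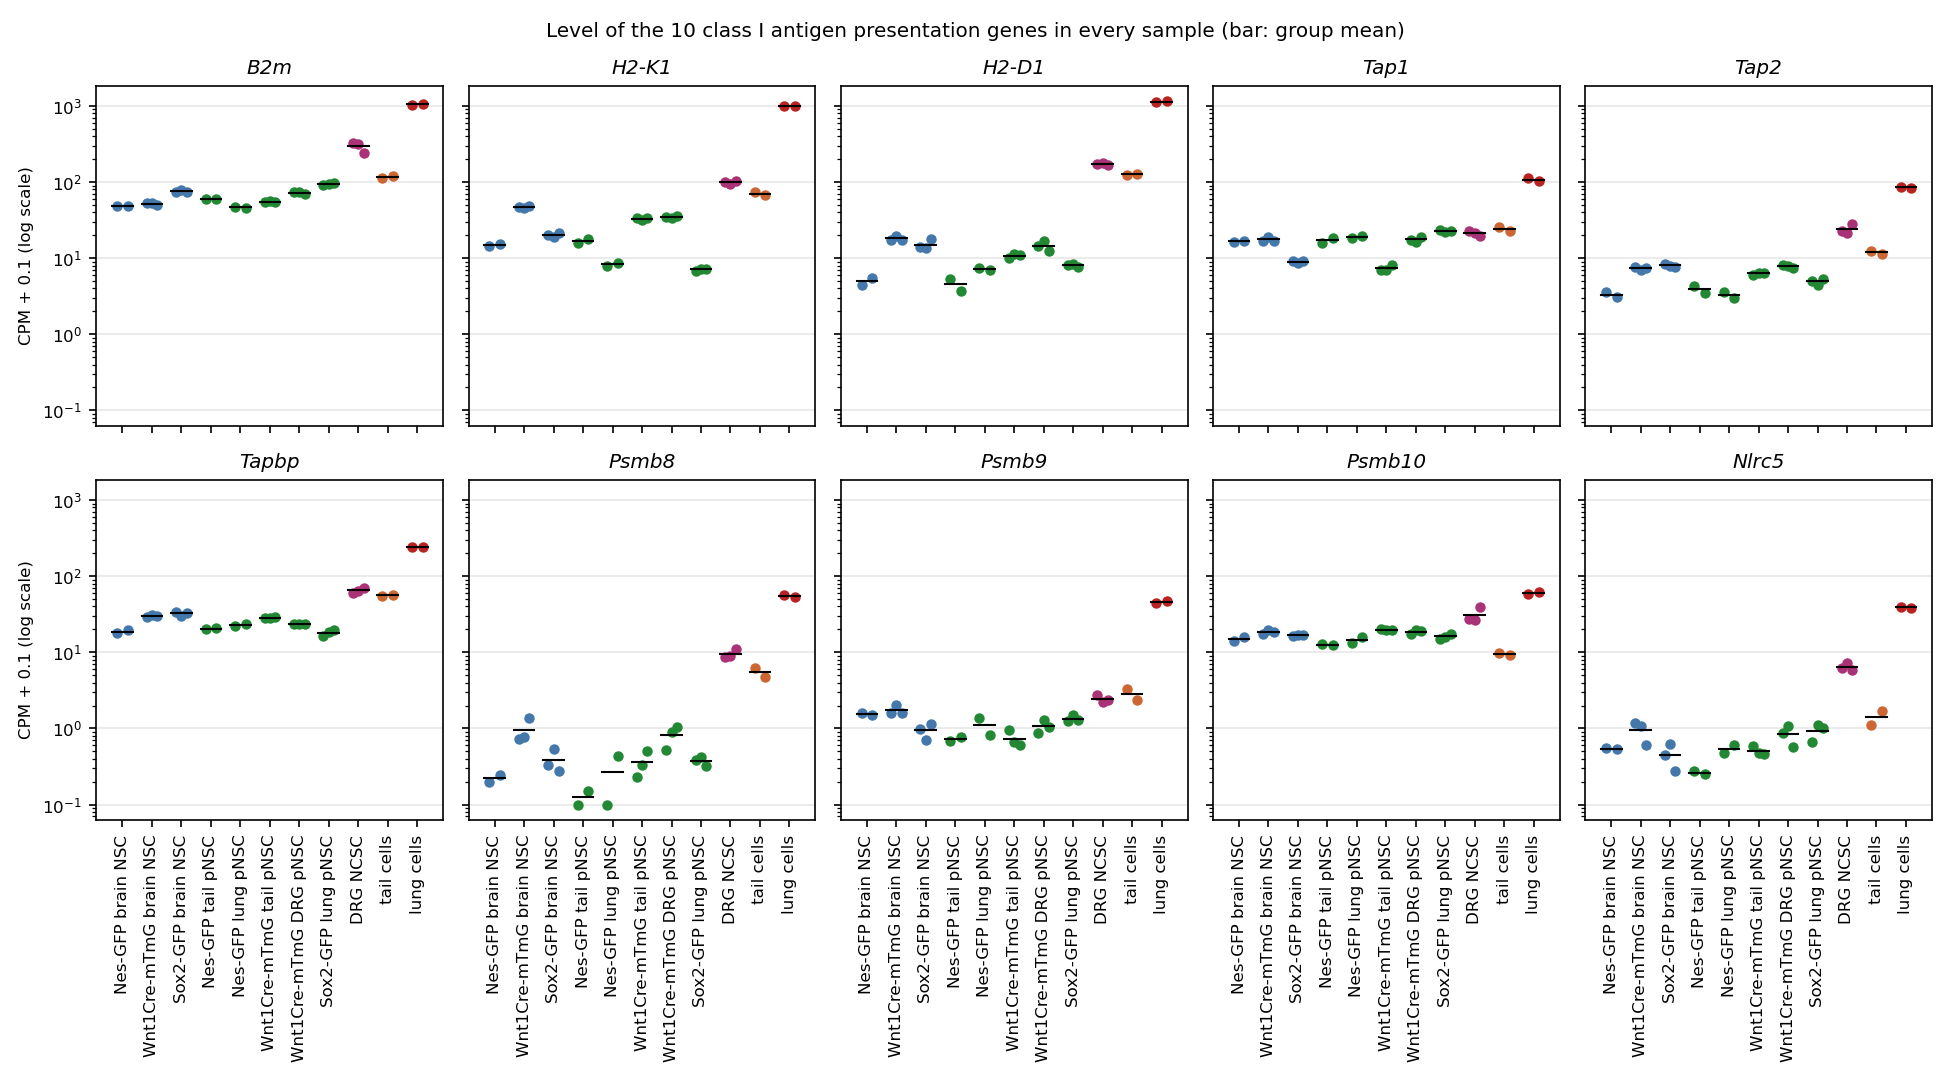
CPM plus 0.1, on a log axis, for each gene (panels) in every sample (points) of the 11 groups, with bars at the group means. Blue marks brain NSCs, green pNSCs, purple DRG NCSCs, orange tail cells and red lung cells. Lung cells are highest in every panel, while Psmb10 is the 1 gene whose mean is lower in tail cells than in the neural groups.

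The pNSCs were also below tail cells for B2m, but not all within the brain NSC range. The brain NSC means ran from 48.1 to 75.2 CPM, and 3 of the 5 pNSC means lay inside. Nes-GFP lung pNSCs lay below that range and Sox2-GFP lung pNSCs above it. The B2m levels were 60.4 and 60.1 CPM in Nes-GFP tail pNSCs, 47.4 and 45.3 in Nes-GFP lung pNSCs and 92.4, 93.5 and 96.4 in Sox2-GFP lung pNSCs. The Wnt1Cre-mTmG lines gave 54.4, 55.8 and 54.6 CPM in tail pNSCs and 73.4, 74.1 and 70.6 in DRG pNSCs. In the order of B2m means, only Sox2-GFP brain NSCs and Wnt1Cre-mTmG DRG pNSCs were neighbours whose samples overlapped.

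H2-K1, the K heavy chain, varied far more among the neural lines than its light chain. It stood at 998 and 988 CPM in lung cells, 101, 94.5 and 103 in DRG NCSCs and 73.4 and 67.3 in tail cells. Wnt1Cre-mTmG brain NSCs had 47.4, 45.9 and 48.8 CPM, the highest of the neural groups. Sox2-GFP lung pNSCs had 6.75, 7.11 and 7.21 CPM, the lowest of all 11 groups. The 8 neural group means spanned 6.75-fold for H2-K1, against 2.03-fold for B2m, and no neighbouring groups overlapped.

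H2-D1, the D heavy chain, measured 1134 and 1145 CPM in lung cells, 170, 177 and 167 in DRG NCSCs and 126 and 129 in tail cells. The neural samples lay between 3.56 CPM in a Nes-GFP tail pNSC sample and 19.7 CPM in a Wnt1Cre-mTmG brain NSC sample. The highest neural group means were those of Wnt1Cre-mTmG brain NSCs, Sox2-GFP brain NSCs and DRG pNSCs (18.1 ± 1.4, 14.9 ± 2.3 and 14.5 ± 2.3 CPM, SD, n = 3 each). The Sox2-GFP brain NSC samples overlapped with both other groups, while the Wnt1Cre-mTmG brain NSC samples lay above those of the DRG pNSCs. Per kilobase of all annotated exons, B2m exceeded H2-K1 and H2-D1 in all 11 groups. In CPM without length, mean H2-D1 exceeded mean B2m in lung cells (1139 against 1047) and tail cells (127.1 against 116.5).

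Tap1 and Tap2 encode the subunits of the peptide transporter, and they did not follow each other in the neural lines. Tap1 measured 112 and 102 CPM in lung cells, 25.5 and 22.3 in tail cells and 22.9, 21.0 and 19.7 in DRG NCSCs. The Sox2-GFP lung pNSCs, with 23.6, 22.1 and 22.9 CPM, overlapped with the tail cells and the DRG NCSCs. Sox2-GFP brain NSCs (9.10, 8.53 and 9.05 CPM) and Wnt1Cre-mTmG tail pNSCs (6.91, 6.84 and 7.97 CPM) lay apart below all other groups. Tap2 was at 86.6 and 83.7 CPM in lung cells, 22.9, 21.5 and 28.1 in DRG NCSCs and 12.5 and 11.2 in tail cells. In the neural groups Tap2 means ran from 3.16 CPM in Nes-GFP lung pNSCs to 7.98 CPM in Sox2-GFP brain NSCs. Sox2-GFP brain NSCs thus had the highest Tap2 mean and, after Wnt1Cre-mTmG tail pNSCs, the lowest Tap1 mean.

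Tapbp encodes tapasin, which holds the empty heavy chain at the transporter. It measured 243 and 239 CPM in lung cells, 60.7, 63.7 and 70.5 in DRG NCSCs and 54.6 and 57.2 in tail cells. The neural group means ran from 18.1 CPM in Sox2-GFP lung pNSCs to 32.4 CPM in Sox2-GFP brain NSCs, a span of 1.79-fold.

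The inducible proteasome subunits differed widely in level. Psmb8 (LMP7) measured 57.0 and 53.8 CPM in lung cells, 8.45, 8.96 and 11.1 in DRG NCSCs and 6.03 and 4.66 in tail cells. In the neural samples it ran from 0 to 15 counts, or 0 to 1.27 CPM. Nes-GFP tail pNSCs held 0 and 1 counts and Nes-GFP lung pNSCs 0 and 6 counts, so that differences among neural lines were mostly not detectable at this depth. Psmb9 (LMP2) measured 44.6 and 46.9 CPM in lung cells, 3.24 and 2.30 in tail cells, 2.66, 2.10 and 2.29 in DRG NCSCs, and 0.508 to 1.93 CPM in the neural samples. Psmb10 (MECL-1) behaved differently. It measured 57.9 and 61.7 CPM in lung cells and 27.3, 26.8 and 38.7 CPM in DRG NCSCs, and its neural samples ran from 12.3 to 20.01 CPM. Tail cells, with 9.65 and 9.12 CPM, were lowest of all groups for Psmb10.

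Nlrc5, the transactivator of class I genes, measured 39.5 and 38.5 CPM in lung cells, 6.07, 7.24 and 5.76 in DRG NCSCs and 1.00 and 1.60 in tail cells. The neural samples held between 0.153 and 1.07 CPM, and Nes-GFP tail pNSCs had 3 counts in each sample, which is the detection floor.

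Because each inducible subunit takes the place of a constitutive one, their ratio was computed per kilobase of exon. These lengths merge all annotated exons of a gene and can differ from the transcripts made. The percentages depend on them, while comparisons of the same ratio between groups do not. In CPM without length, Psmb8 (mean 55.4) stood above Psmb5 (mean 17.3) in lung cells. Psmb8 stood at 85.0% ± 5.1 (SD, n = 2) of Psmb5 in lung cells, 4.99% ± 0.57 (n = 2) in tail cells and 4.52% ± 0.88 (n = 3) in DRG NCSCs. In the 8 neural groups the mean ratio was between 0.0143% and 0.645%. Psmb9 over Psmb6 was 32.4% ± 1.2 (SD, n = 2) in lung cells and 0.198% to 0.573% in the neural groups. Psmb10 over Psmb7 was 340% ± 30 (SD, n = 2) in lung cells, 97.8% ± 33 (n = 3) in DRG NCSCs, where replicate 3 gave 136%, and 22.9% to 43.5% in the neural groups. Tail cells, at 28.1% ± 1.4 (SD, n = 2), fell inside that last range. In lung cells the constitutive subunits went the other way: Psmb5 was at 17.1 and 17.6 CPM there and at 31.6 to 56.7 CPM in the neural samples. In DRG NCSCs Psmb5 was not low, at 47.6, 45.1 and 82.5 CPM, while the means of Psmb6 and Psmb7 lay below those of all neural groups.

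**Figure D2:**
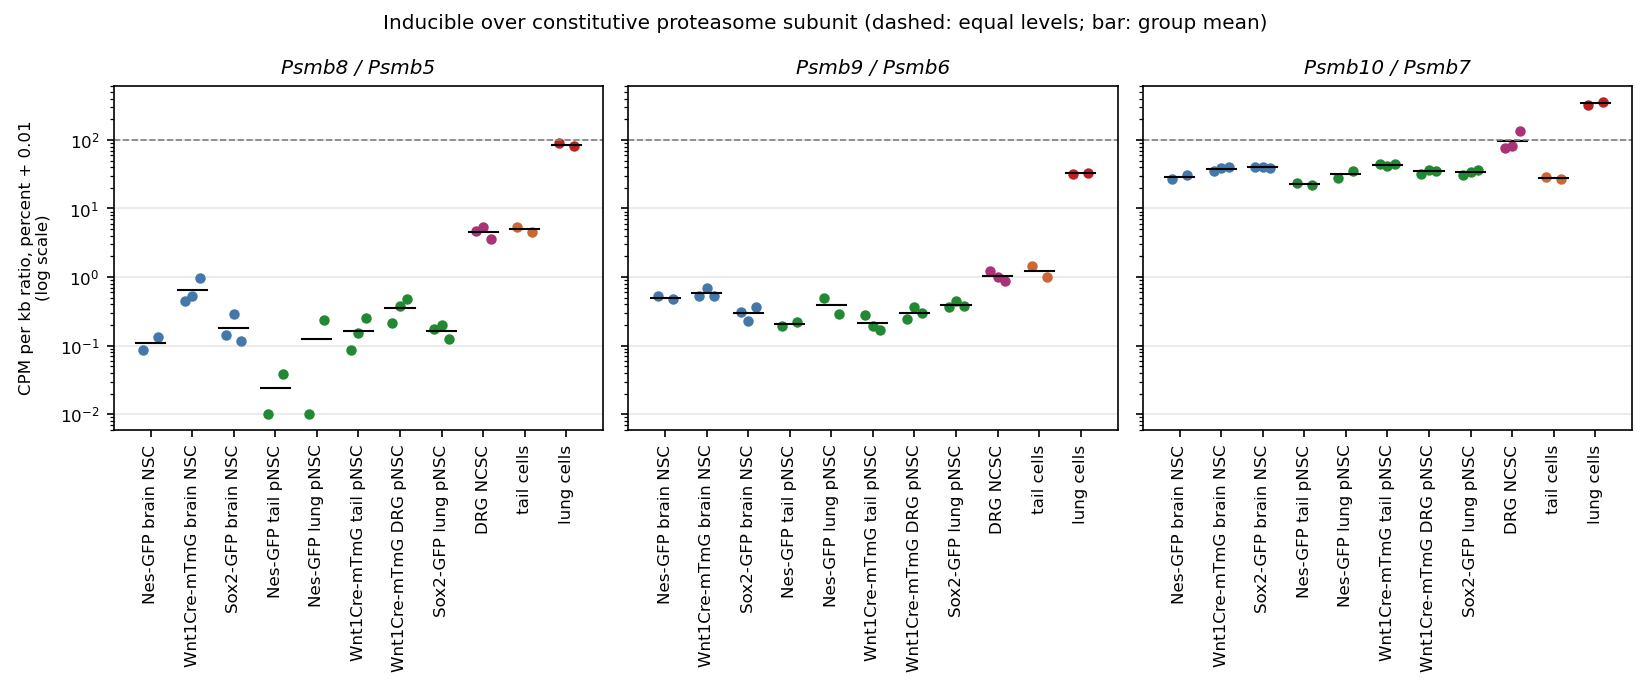
Ratio of each inducible proteasome subunit to the constitutive subunit it replaces, per kilobase of exon, in percent plus 0.01 on a log axis, for every sample of the 11 groups (bars are group means, the dashed line marks equal levels per kilobase). The percentages depend on the exon lengths used. Psmb8 and Psmb9 stay below 1% of their partners in all neural samples, whereas Psmb10 stays between 22.1% and 44.8%.

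Across the 11 groups, the log2 levels of the 10 genes rose and fell together, with a median Pearson r of 0.911 over the 45 pairs and 35 pairs above 0.8. Within the 8 neural groups the median r was 0.436, 3 pairs exceeded 0.8 and 11 were below 0. These are descriptions over 11 and 8 group means that share libraries, and the second leaves out lung cells, tail cells and DRG NCSCs. Among 14428 other genes, the 10 with the pattern most like the mean of the members over the 11 groups were Siglece, Rnf181, Snx20, 0610040J01Rik, H2-M3, Irgm2, Cd200r1, Fpr1, Stap1 and Cd48, with r from 0.987 to 0.992. A further look at the whole table gave 827 genes with r above 0.9, so that this pattern was a common one.

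Against brain NSCs, the number of called genes in the 5 pNSC groups ran from 0 to 4 of 10, and it is read beside the share of all genes called in each comparison. A gene was called when its adjusted p in edgeR's quasi-likelihood test (Benjamini-Hochberg over all genes tested) was under 0.05 and its log2 fold change at least 1 in size. In Nes-GFP tail pNSCs, 1 of 10 was called, with 10.9% of all genes called in either direction (4.31% higher and 6.59% lower). It was Psmb9, which fell by 1.24 on the log2 scale (SE 0.37, adjusted p = 0.00238, edgeR) from 1.504 and 1.402 CPM to 0.579 and 0.662 CPM. With limma on quantile-normalized log2 values it gave -0.89, below the fold limit. Nlrc5 had 6 counts over both tail pNSC samples against 18 in brain NSCs, with a log2 fold change of -1.43 (SE 0.68, adjusted p = 0.0697, edgeR). In Nes-GFP lung pNSCs none of the 10 was called, with 8.71% of all genes called (4.56% higher and 4.15% lower). At an adjusted p under 0.05 with no limit on the fold, H2-K1 was lower there and H2-D1 and Tapbp were higher, with log2 fold changes of -0.88, 0.51 and 0.26.

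Wnt1Cre-mTmG tail pNSCs held 4 called genes, all lower, with 18.2% of all genes called (9.16% higher and 9.05% lower). Tap1 fell by 1.29 (SE 0.10, adjusted p = 3.86e-09), from 16.9, 18.7 and 17.0 CPM in brain NSCs to the 6.84 to 7.97 CPM given above. The log2 fold changes of the others were -1.36 for Psmb9 (SE 0.28, adjusted p = 0.000355), -1.77 for Psmb8 (SE 0.49, adjusted p = 0.00409) and -1.04 for Nlrc5 (SE 0.38, adjusted p = 0.0244). The last 2 rest on few reads: Psmb8 had 7 to 15 counts in brain NSCs and 3 to 8 in tail pNSCs. The leukocyte markers summed to 1.77 to 2.61 CPM in these tail pNSCs and 4.19 to 7.04 CPM in the brain NSCs, and the fibroblast markers to 418 to 428 CPM and 33.1 to 33.9 CPM, and their part was not tested. The Psmb8 call was lost without brain NSC replicate 3 (-1.36, adjusted p = 0.0527), and that of Nlrc5 without any of 4 single samples: brain NSC replicate 1 or 2, or tail pNSC replicate 2 or 3 (adjusted p = 0.0584 to 0.13). With limma Nlrc5 gave -0.95, below the fold limit. In DRG pNSCs of the same experiment none of the 10 was called, with 9.53% of all genes called (3.12% higher and 6.41% lower), and B2m was 0.50 higher on the log2 scale (SE 0.10, adjusted p = 0.000441), below the fold limit.

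In Sox2-GFP lung pNSCs 3 of 10 were called, with 15.7% of all genes called (5.76% higher and 9.99% lower). Tap1 rose by 1.39 (SE 0.07, adjusted p = 9.84e-78) and Nlrc5 by 1.21 (SE 0.36, adjusted p = 0.00166), while H2-K1 fell by 1.49 (SE 0.07, adjusted p = 1.49e-85). H2-K1 stood at 20.2, 19.0 and 21.2 CPM in the brain NSCs of this experiment. The rise of Nlrc5 fell to 0.92 without brain NSC replicate 3, below the fold limit, and the other calls were kept without any single sample. Below the fold limit, Tap2 gave -0.68 (SE 0.11, adjusted p = 1.25e-09) and H2-D1 -0.85 (SE 0.07, adjusted p = 1.24e-26), so that of the transporter subunits Tap1 was higher and Tap2 lower.

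**Figure D3:**
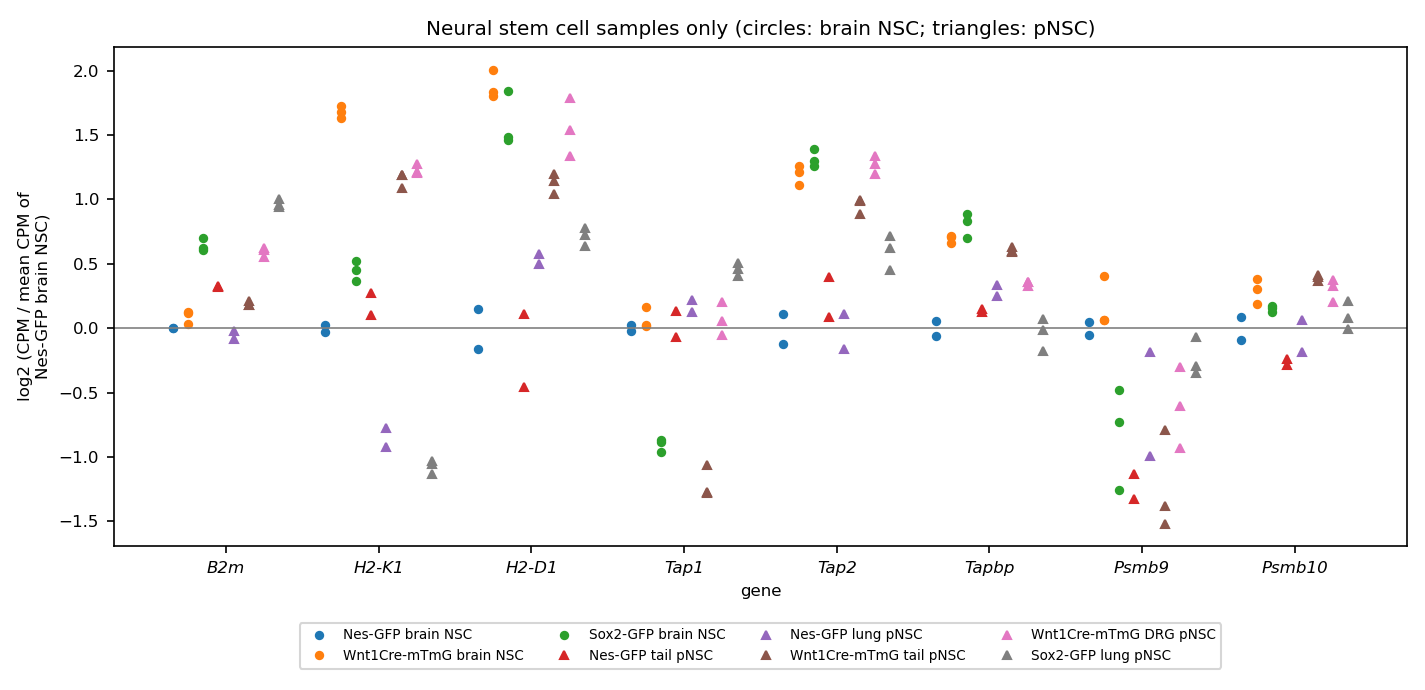
Log2 ratio of CPM to the mean of Nes-GFP brain NSCs for 8 of the genes (Psmb8 and Nlrc5 are left out for their low counts) in the 21 neural samples, with circles for brain NSCs and triangles for pNSCs. The brain NSC means span 3.69-fold for H2-D1 and 2.49-fold for Tap2, beside 4.09-fold and 2.53-fold over all 8 neural groups. For H2-K1 they span 3.21-fold beside 6.75-fold, and both lung pNSC groups lie below every brain NSC group.

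The brain NSC groups of the 3 experiments also differed from each other. Compared with Nes-GFP brain NSCs, those of the Wnt1Cre-mTmG experiment were higher for 4 of 10 genes, with 12.5% of all genes called (9.12% higher and 3.35% lower): H2-K1 rose by 1.67 (SE 0.07), H2-D1 by 1.87 (SE 0.13), Tap2 by 1.19 (SE 0.16) and Psmb8 by 2.74 (SE 0.67). For Psmb8 this is 29 counts in 3 samples against 5 in 2, a ratio of 7.04 with a 95% counting interval of 2.7 to 23.3. Sox2-GFP brain NSCs were higher than Nes-GFP brain NSCs for H2-D1 (1.56, SE 0.12) and Tap2 (1.29, SE 0.15), with 19.0% of all genes called (11.9% higher and 7.09% lower). Compared with Wnt1Cre-mTmG brain NSCs they were lower for H2-K1 (-1.26, SE 0.06), Psmb8, Psmb9 and Nlrc5, with 15.5% of all genes called (7.83% higher and 7.68% lower), and the last 3 calls were each lost without 1 of the samples: Nlrc5 without Sox2-GFP replicate 3 (-0.90) or Wnt1Cre-mTmG replicate 1 or 2, Psmb8 without Wnt1Cre-mTmG replicate 3 (-1.13, adjusted p = 0.127, edgeR) and Psmb9 without replicate 2 of either group (-0.78 and -0.90). The Nlrc5 samples of the groups overlapped. With limma the Tap2 differences from Nes-GFP brain NSCs were 0.74 and 0.84, below the fold limit. Mouse line, animal and experiment cannot be told apart in these 3 comparisons. Of the 50 pNSC group means (5 pNSC groups by 10 genes), 31 lay inside the range of the 3 brain NSC means of the same gene. The share over all genes was not computed, so this count cannot be read as particular to these genes.

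Whether the change from brain NSC to pNSC was the same for pNSCs of the same tissue in different experiments was tested as a difference of the 2 changes. For tail pNSCs, Tap1 differed by -1.31 (Wnt1Cre-mTmG minus Nes-GFP, SE 0.14, adjusted p = 2.24e-10), with 16.0% of all genes called (8.96% higher and 7.05% lower). For lung pNSCs, 4 genes differed (Sox2-GFP minus Nes-GFP), with 14.1% of all genes called (5.89% higher and 8.24% lower): Tap1 by 1.24 and Psmb9 by 1.13, and H2-D1 by -1.38 and Tapbp by -1.08. The H2-D1 change was 0.51 in Nes-GFP lung pNSCs and -0.85 in Sox2-GFP lung pNSCs. The Nes-GFP lung pNSCs came from adult and the Sox2-GFP lung pNSCs from postnatal lung, so age and experiment cannot be told apart.

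Against lung cells, the genes fell together. In Nes-GFP lung pNSCs all 10 were lower than in lung cells, with 55.0% of all genes called in either direction (20.2% higher and 34.9% lower). The log2 fold change was -7.39 for H2-D1 (SE 0.05), -6.99 for H2-K1 (SE 0.05), -4.56 for B2m (SE 0.04), -4.81 for Tap2 (SE 0.11) and -3.48 for Tapbp (SE 0.06). Tap1 (-2.59, SE 0.07) and Psmb10 (-2.12, SE 0.09) changed least. Among the genes of low level in pNSCs it was -8.50 for Psmb8 (SE 0.21), -5.54 for Psmb9 (SE 0.16) and -6.53 for Nlrc5 (SE 0.20). The median of the 10 log2 fold changes was -5.17, beside -0.154 over all genes tested. The Sox2-GFP lung pNSCs, set against the same 2 lung cell samples, were also lower for all 10, with 56.3% of all genes called (21.3% higher and 34.9% lower) and a median of -4.70 beside -0.118. Those lung cells belong to the Nes-GFP experiment, so cell type, experiment and mouse line cannot be told apart in this comparison.

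In these bulk samples, fewer cells of a type and less RNA per cell cannot be told apart. Lung cells held 4611 to 4648 CPM of the 12 leukocyte markers, all 12 above the floor, with Lyz2 at 3755 ± 18 CPM (SD, n = 2) and Ptprc at 240 ± 5.3 CPM. They also held 4502 to 4579 CPM of endothelial markers and 28060 to 28670 CPM of lung epithelium markers. In the 21 neural samples the leukocyte markers summed to 1.77 to 7.27 CPM and the lung epithelium markers to at most 0.754 CPM. The part of these cell types in the high class I levels of lung cells was not tested.

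**Figure D4:**
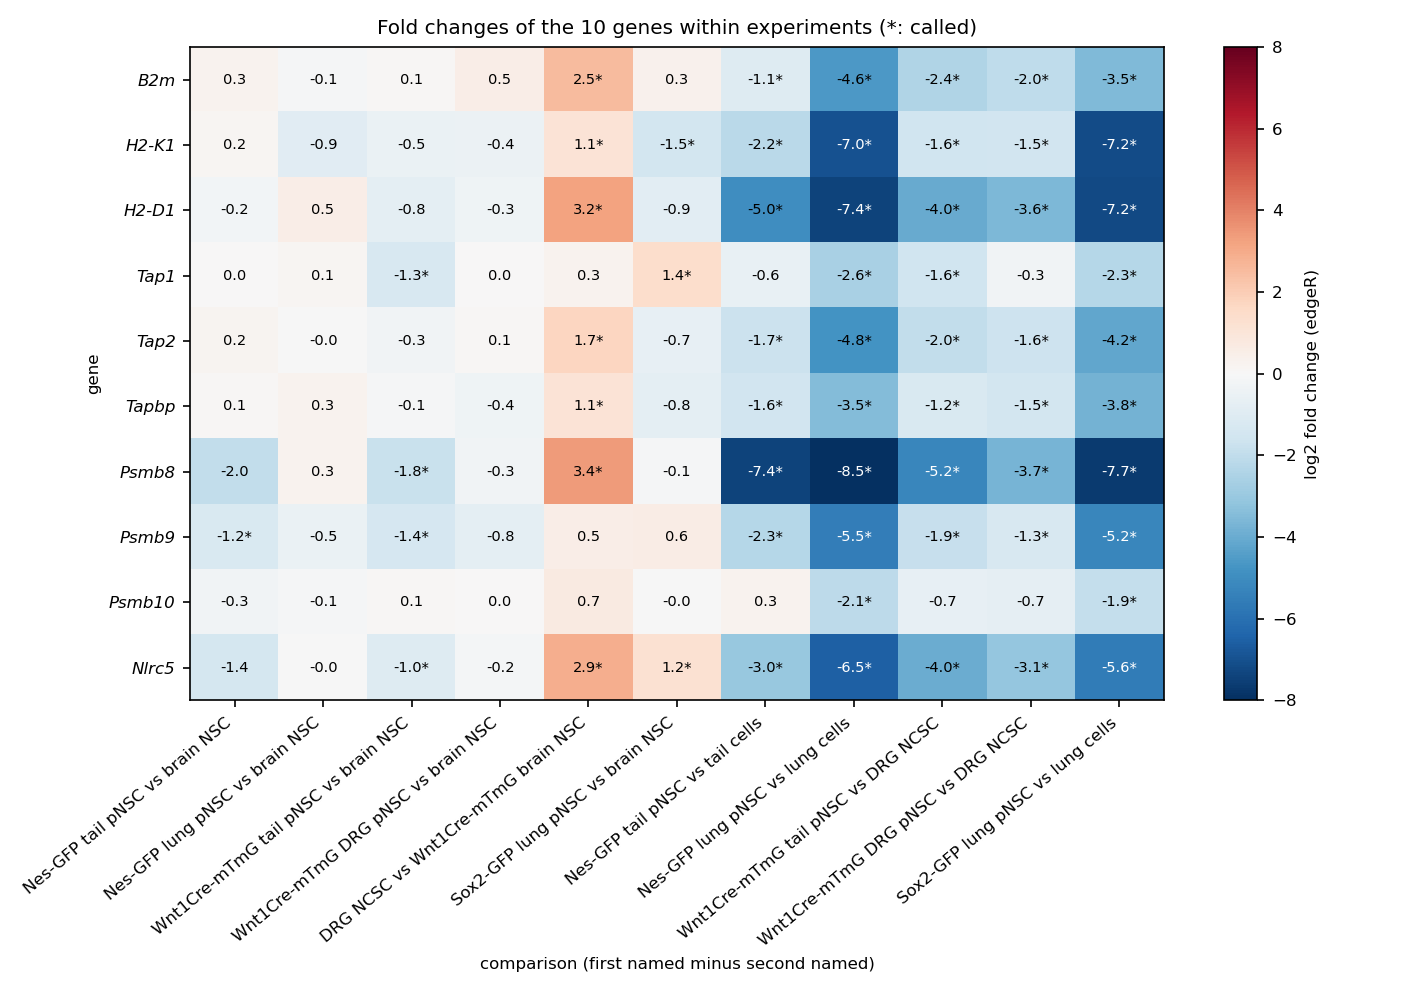
Log2 fold changes (edgeR) of the 10 genes (rows) in the 11 comparisons fitted by experiment (columns), first named group minus second, with red for higher, blue for lower and an asterisk for called genes. Sox2-GFP lung pNSCs are set against the lung cells of the Nes-GFP experiment. Comparisons of pNSCs with brain NSCs are pale, while all 10 genes are lower in both comparisons with lung cells.

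In Nes-GFP tail pNSCs 8 of 10 genes were lower than in tail cells, with 46.7% of all genes called in either direction (14.1% higher and 32.6% lower). The log2 fold change was -4.96 for H2-D1 (SE 0.07), -2.16 for H2-K1 (SE 0.06), -1.75 for Tap2 (SE 0.15), -1.56 for Tapbp (SE 0.07) and -1.05 for B2m (SE 0.05). B2m gave -0.97 when all 28 samples shared a fit, below the fold limit. It was -2.26 for Psmb9 (SE 0.33) and -3.03 for Nlrc5 (SE 0.55), the latter from 43 to 6 counts over the 2 samples. Psmb8 had 1 count in tail pNSCs against 181 in tail cells, a ratio of 199 with a 95% counting interval of 35.2 to 7890. Tap1 gave -0.59 (SE 0.09, adjusted p = 2.78e-10) and Psmb10 0.31 (SE 0.12, adjusted p = 0.0147), both below the fold limit. The median of the 10 was -1.95, beside -0.159 over all genes. With quantile-normalized log2 values and limma, which moved the median of all genes to 0.367, Psmb9 and Nlrc5 turned positive (0.42 and 0.30), Tap2 gave -0.45 and Psmb10 rose by 1.46. Tail cells held 123 to 125 CPM of the 12 leukocyte markers, all 12 above the floor, 906 to 919 CPM of endothelial markers and 72240 to 73690 CPM of fibroblast markers, whose part in these differences was not tested.

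DRG NCSCs were higher than Wnt1Cre-mTmG brain NSCs for 7 of 10 genes, with 36.9% of all genes called in either direction (22.1% higher and 14.8% lower). Psmb8 rose by 3.43 (SE 0.25), H2-D1 by 3.25 (SE 0.07), Nlrc5 by 2.91 (SE 0.23), B2m by 2.51 (SE 0.09), Tap2 by 1.71 (SE 0.11), Tapbp by 1.11 (SE 0.06) and H2-K1 by 1.06 (SE 0.05). Psmb10, Psmb9 and Tap1 were 0.74, 0.51 and 0.28 higher with an adjusted p under 0.05, below the fold limit. The median was 1.41, beside 0.0149 over all genes. Without DRG NCSC replicate 3 the count was again 7. The NCSCs came from wild-type and the brain NSCs from Wnt1Cre-mTmG mice, so cell type, tissue and genotype cannot be told apart.

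Tail and DRG pNSCs were lower than the DRG NCSCs. In tail pNSCs 9 of 10 genes fell (37.9% of all genes called, 15.3% higher and 22.6% lower) and in DRG pNSCs 8 of 10 (38.3% called, 15.1% higher and 23.3% lower), with medians of -1.92 and -1.57 beside -0.002 and -0.00347 over all genes. Both comparisons share the NCSC samples. The NCSCs came from adult wild-type mice and these pNSCs from postnatal Wnt1Cre-mTmG mice, so cell type, age and genotype cannot be told apart. The log2 fold change of H2-D1 was -4.01 in tail pNSCs and -3.56 in DRG pNSCs (SE 0.07 and 0.08), and that of Psmb8 was -5.20 and -3.72 (SE 0.26 each). Tap1 gave -1.57 in tail pNSCs (SE 0.09, called) and -0.27 in DRG pNSCs (SE 0.09, not called). Without NCSC replicate 3 the counts were again 9 and 8. With limma, Psmb9 was no longer called in either (-0.98 for tail and -0.15 for DRG pNSCs). The NCSCs held 679 to 709 CPM of leukocyte markers, 10 of 12 above the floor, with Lyz2 at 525 ± 22 CPM (SD, n = 3), Adgre1 at 39.9 ± 0.43 CPM and Ptprc at 11.6 ± 1.3 CPM, and with Cd3e at 0. Their fibroblast markers summed to 2822 to 3478 CPM. The part of these in the NCSC levels was not tested.

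The rest of the pathway was read from lists of genes with fixed roles. The chaperones and peptidases that load and trim peptides (14 of 15 genes tested) changed in both directions: in Nes-GFP lung pNSCs against lung cells 4 were higher and 2 lower, with a list median of 0.21, beside 20.2% of all genes higher and 34.9% lower and a median of -0.154. The 2 that fell were Tapbpl, a tapasin-related peptide editor (-4.08, SE 0.13), and Erap1, the aminopeptidase that trims class I peptides (-2.58, SE 0.07). The peptidases Npepps, Thop1 and Ide rose by 1.56, 1.503 and 1.41. Tapbpl and Erap1 also fell against tail cells (-3.46 and -1.87) and rose in DRG NCSCs against brain NSCs (by 1.22 and 1.29). In Wnt1Cre-mTmG tail pNSCs against brain NSCs the 2 called genes were other ones, the chaperones Hspa5 (-1.33) and Calr (-1.22).

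Among the 19 further proteasome genes, the 2 that fell against lung cells (34.9% of all genes lower) and against tail cells (32.6%) in the Nes-GFP experiment were Psme1 and Psme2, which encode the interferon-inducible activator PA28. Psme1 gave -2.32 (SE 0.06) against lung cells and -1.32 (SE 0.07) against tail cells, and Psme2 gave -1.44 and -1.24. The constitutive subunits Psmb7 and Psmb5 and the nuclear activator gene Psme3 rose against lung cells by 1.32, 1.04 and 1.28, and the list median was 0.65. Against brain NSCs none of the 19 was called in any of the 5 pNSC comparisons, in which 8.71% to 18.2% of all genes were called.

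Among the 25 regulators, 14 fell and none rose in Nes-GFP lung pNSCs against lung cells (list median -1.48), beside 34.9% of all genes lower and 20.2% higher (median -0.154). The log2 fold change was -4.53 for Irf1, an interferon-induced activator (SE 0.09), -3.37 for Irf9 (SE 0.09) and -2.65 for Ifngr1, an interferon gamma receptor subunit (SE 0.05). Against tail cells 5 of 25 were called lower (list median -0.54), a smaller share than the 32.6% of all genes, among them Irf1 (-4.41, SE 0.09) and Irf9 (-1.49). Against brain NSCs at most 3 of 25 were called in a pNSC group, beside 8.71% to 18.2% of all genes. In Nes-GFP tail pNSCs 2 fell and 1 rose, among them Socs1 (-1.26) and Atf1 (1.73). Atf1 rose by 1.07 in Nes-GFP lung pNSCs, Irf1 fell by 1.73 (SE 0.10) in Wnt1Cre-mTmG tail pNSCs, and none was called in the other 2 pNSC groups. In DRG NCSCs against brain NSCs 9 of 25 rose and 1 fell, beside 22.1% of all genes higher and 14.8% lower, and Irf1 rose by 1.503 (SE 0.08). Irf1 stood at 116 ± 1.0 CPM in lung cells, 107 ± 0.48 in tail cells (SD, n = 2 each) and 34.1 ± 0.89 in DRG NCSCs (n = 3), and its neural group means ran from 3.64 to 11.96 CPM. In tail cells Irf1 was near its lung level, while Nlrc5 was at 1.00 and 1.60 CPM.

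The other class I heavy chain genes formed a mixed picture. Of 17 tested, 16 fell in Nes-GFP lung pNSCs against lung cells (34.9% of all genes lower), and 13 fell and 1 rose in Nes-GFP tail pNSCs against tail cells (32.6% of all genes lower and 14.1% higher). H2-T23, which encodes the non-classical molecule Qa-1, measured 190 ± 4.5 CPM in lung cells and 1.30 ± 0.25 CPM in Nes-GFP lung pNSCs (SD, n = 2 each), a fall of 7.24 (SE 0.11). Fcgrt, the class I-like receptor that carries IgG, measured 88.8 ± 0.56 CPM in tail cells and 0.755 ± 0.085 CPM in tail pNSCs (SD, n = 2 each), a fall of 6.96 (SE 0.13). Among the Wnt1Cre-mTmG lines, H2-T24 measured 4.55 ± 0.88 CPM in tail pNSCs and 0.150 ± 0.054 CPM in brain NSCs (SD, n = 3 each), and H2-T10 measured 0.111 ± 0.036 and 3.19 ± 0.23 CPM. The low values rest on 1 to 3 counts per sample, and the groups did not overlap. These genes resemble each other in sequence, so reads can be lost or shifted between them, and their values are uncertain.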

How the data were processed

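Single-end RNA-seq of polyA-selected RNA was measured in 28 samples of 11 groups. The authors aligned reads to GRCm38 with HISAT2 and counted them per gene with HTSeq, and the deposited values are raw counts with no normalization. Strand setting, counting mode and annotation release are not given in the sources used here. Multi-copy class I genes can lose reads in such counting. Levels are counts scaled to CPM with TMM factors. Fold changes came from edgeR 4.0.16 (R 4.3.3), with the two-sided quasi-likelihood test, filterByExpr (minimum count 10, minimum total 15) and TMM, in 1 fit per experiment; brain NSC lines and differences of changes used 1 fit of all 28 samples. Many fold changes are given with a standard error and without an adjusted p-value. The standard error was computed as the size of the log2 fold change over the square root of the quasi-likelihood F statistic. A gene was called where its adjusted p was under 0.05 and its log2 fold change was 1 or more in size. The filter was applied over all groups of a fit together. In the Nes-GFP experiment the neural samples held 0 to 6 counts of Psmb8 and 3 to 9 of Nlrc5. Both passed there through lung and tail cells. Psmb8, with 3 to 10 counts in the Sox2-GFP neural samples, passed there through lung cells.

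Exon lengths and positions came from GENCODE and promoters from RefSeq, both on GRCm38. Counting intervals are exact at 95% and cover counting error only, as does the floor of 3 counts. The members and lists were chosen with earlier results of these data known. All members are named, with up to 5 called genes of largest change per list and comparison. Some genes of the lists are not reported here by name. The fits were tested on simulated data: for Nes-GFP tail pNSCs against brain NSCs (16219 genes), edgeR recovered 200 of 200 genes changed by 2 on the log2 scale, with 2 false calls. The changed genes were drawn from those of higher mean count, with the same spread for all genes. The recovery therefore does not cover smaller changes or genes of few counts, such as Psmb8 and Nlrc5 in the neural samples. The alternatives were DESeq2 1.42.0, limma 3.58.1 on quantile-normalized log2 values with 1 added, upper-quartile scaling, no filter, a mean count of at least 100, other sample sets, a replicate block, no fold limit and leaving out each sample. Figures were made with matplotlib 3.10.9 in Python 3.11.15.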

Additional observations from a re-analysis of the deposited data

Results flagged for a closer look

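For 5 results, the change from brain NSC to pNSC differed between 2 experiments by a test of the difference itself, in 1 edgeR fit over all 28 samples. For tail pNSCs, Tap1 differed by -1.31 (SE 0.14, adjusted p = 2.24e-10), with log2 fold changes of -1.29 in the Wnt1Cre-mTmG and 0.014 in the Nes-GFP experiment. For lung pNSCs, Tap1 differed by 1.24 (SE 0.13, adjusted p = 1.1e-10), H2-D1 by -1.38 (SE 0.18, adjusted p = 5.06e-08) and Tapbp by -1.08 (SE 0.10, adjusted p = 2.76e-11), Sox2-GFP minus Nes-GFP. Psmb9 differed by 1.13 (SE 0.39, adjusted p = 0.0163) for lung pNSCs, and this call was lost without Nes-GFP brain NSC replicate 1 (adjusted p = 0.0557), Nes-GFP lung pNSC replicate 2 (adjusted p = 0.117) or Sox2-GFP brain NSC replicate 2 (adjusted p = 0.0816). Each difference rests on 2 samples per Nes-GFP group.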

How the results depend on the processing

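The sign and the call of each of the 10 genes against lung cells held under every alternative run, although quantile normalization moved the median of all genes there from -0.154 to 0.385 (Nes-GFP) and from -0.118 to 0.331 (Sox2-GFP). No paired analysis was supported: samples with the same replicate number did not deviate together (r from -0.0147 to 0.0522 within experiments). With the replicate block, the counts of called members were those of the main fit, 10 and 10 for lung pNSCs against lung cells and 7 for DRG NCSCs against brain NSCs, and no call changed. With no fold limit, the counts rose to 3 each for Nes-GFP tail and lung pNSCs, 5 for DRG pNSCs and 8 for Sox2-GFP lung pNSCs (all against brain NSCs), to 7 for Sox2-GFP brain NSCs against each of the other brain NSC groups, and to 3 and 7 for the differences of the tail and lung changes. At a mean count of at least 100, where Psmb8, Psmb9 and Nlrc5 were no longer tested, they were 1 for Wnt1Cre-mTmG tail pNSCs against brain NSCs and 5 for DRG pNSCs against DRG NCSCs. With quantile-normalized log2 values and limma, Nes-GFP tail pNSCs against brain NSCs had 0 (edgeR: 1).

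Signs turned in values near 0 or of few counts, and the cause was not tested. With limma they were, against tail cells, Psmb9 0.42 and Nlrc5 0.30 in Nes-GFP tail pNSCs; against brain NSCs, Psmb8 -0.54 in Nes-GFP and 0.42 in Sox2-GFP lung pNSCs, Psmb8 0.043 and Nlrc5 0.092 in DRG pNSCs, and Psmb9 -0.33 in DRG NCSCs; between Wnt1Cre-mTmG and Nes-GFP brain NSCs, Psmb9 -0.34 and Tap1 -0.022; and in the differences of change, Psmb8 0.94 (lung) and -0.26 (tail). In DRG pNSCs against brain NSCs, Tap1 gave -0.0058 (DESeq2), -0.023 (mean count of 100), -0.015 (no filter), -0.016 (only the groups compared) and -0.0090 (upper quartile), and Psmb10 gave -0.017 (mean count of 100), -0.0085 (no filter), -0.011 (only the groups compared) and -0.0022 (upper quartile). Tap1 in Nes-GFP tail pNSCs against brain NSCs gave -0.00015 (no filter) and -0.0066 (only the groups compared). The difference of the lung change of Psmb10 gave -0.014 (DESeq2) and -0.0036 (upper quartile).

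Leaving out single samples gave ranges that crossed 0, against brain NSCs, for H2-D1 (-0.48 to 0.072) and Tap1 (-0.099 to 0.11) in Nes-GFP tail pNSCs; for Nlrc5 (-0.25 to 0.16), Psmb10 (-0.21 to 0.038), Psmb8 (-4.26 to 1.38) and Tap2 (-0.19 to 0.088) in Nes-GFP lung pNSCs; for Psmb10 (-0.091 to 0.025) and Psmb8 (-0.31 to 0.45) in Sox2-GFP lung pNSCs; and for Nlrc5 (-0.46 to 0.041), Psmb10 (-0.041 to 0.062), Psmb8 (-0.55 to 0.13) and Tap1 (-0.064 to 0.059) in DRG pNSCs. The same held for Nlrc5 between Sox2-GFP and Nes-GFP brain NSCs (-0.75 to 0.014), and for the differences of change of Psmb10 (-0.11 to 0.17) and Psmb8 (-1.50 to 4.15) in lung and Psmb8 (-0.60 to 2.43) in tail. Called members between Sox2-GFP and Wnt1Cre-mTmG brain NSCs numbered 2 to 5. B2m against tail cells gave -0.97 when all 28 samples shared a fit, below the fold limit.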

Other observations

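The MHC class II genes, which present peptides from outside the cell and are not part of the class I pathway, were read with the same fits. The 10 class II genes summed to 2910 to 2932 CPM in lung cells, 45.0 to 45.9 CPM in tail cells and 4.98 to 9.04 CPM in the neural samples. In DRG NCSCs they summed to 49.1 to 54.4 CPM, of which Ctss, a lysosomal protease gene that leukocytes also use, made 45.2 ± 2.3 CPM (SD, n = 3). Cd74, the invariant chain gene, measured 1333 ± 20 CPM in lung cells, 11.4 ± 0.36 CPM in tail cells (SD, n = 2 each) and 0.437 ± 0.26 CPM in DRG NCSCs (SD, n = 3), and Ciita, the class II transactivator, measured 55.0 ± 1.0 CPM (SD, n = 2) in lung cells and 0.236 ± 0.21 CPM (SD, n = 3) in DRG NCSCs. All 10 class II genes fell in both lung pNSC groups against lung cells, beside 34.9% of all genes in each, and 7 of 10 fell in Nes-GFP tail pNSCs against tail cells, beside 32.6% of all genes.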
